A study of Mus musculus with 2 samples.

Results

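The 10 genes described here, Dclk1, Trpm5, Pou2f3, Il25, Gnat3, Plcb2, Gnb3, Gng13, Avil and Lrmp, are known for chemosensory tuft cells, and they were taken by name from the 27998 genes measured in single cells of the mouse jejunal crypt. The study asked what the microRNA miR-375 does in the intestinal lining. Droplet-based single-cell RNA sequencing was applied to crypts from 2 male mice, 12 months old, that carry a whole-body CRISPR/Cas9 deletion of miR-375 (375KO). The labels give the strain as C57BL6/2J, and the methods give it as B6 albino. The libraries, 1 from each animal, are named replicate 1 and replicate 2 here. Both lack miR-375, so an effect of that loss cannot be told from the values below. Wild-type mice were not analysed here. Tuft cells were compared with the other cell types within each mouse, and since the types were named from the same cells, values are described by size, with 95% intervals that cover counting error only.

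Tuft cells are rare secretory cells of the gut lining that sense luminal metabolites and parasites. A receptor on their surface activates a heterotrimeric G protein, whose beta and gamma subunits turn on phospholipase C beta 2 (Plcb2). The inositol trisphosphate it makes releases calcium from internal stores, and calcium opens the cation channel Trpm5. Activated tuft cells secrete interleukin 25 (Il25), which calls innate lymphoid cells, as well as eicosanoids and acetylcholine. The transcription factor Pou2f3 is needed for the lineage to form, and the same cascade works in the taste bud.

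The authors kept and named 2082 cells in replicate 1 and 1193 in replicate 2, of which 40 and 38 were tuft cells. The libraries shared 0 cell barcodes. Unique molecular identifiers (UMIs), tags that let copies of the same captured RNA be counted once, were summed per library and cell type and are given per 1000000 UMIs of that sum (CPM). The tuft sums held 413531 and 559907 UMIs, so that 3 UMIs correspond to 7.25 and 5.36 CPM. A tuft cell held a median of 8630 UMIs in replicate 1 and 13016.5 in replicate 2. The name "tuft" was set beside 10 other tuft markers, and 10 of 10 were highest in the tuft cells of both libraries. Of the 12281 genes with at least 10 UMIs in the kept cells of each library, 7.12% were. The markers were picked with these data known and the types were named from the same cells, so this is a description and no test. Of 6 enteroendocrine markers, 6 were at 0 in the tuft cells of replicate 1 and 4 in those of replicate 2. The 6 goblet markers together reached 3417 and 3585 CPM in tuft cells, against 184477 and 164890 in goblet cells, and the 6 Paneth markers reached 1105 and 80.4 CPM, against 513019 and 406387 in Paneth cells. The 6 lymphocyte markers summed to 4.84 and 19.6 CPM in tuft cells and to 18207 and 10012 CPM in intraepithelial lymphocytes (IEL). The 6 enterocyte markers summed to 614 and 1495 CPM in tuft cells, against 45789 and 27562 CPM in enterocytes. The 6 stem markers summed to 351 and 348 CPM, against 1190 and 619 CPM in stem cells, and 1 of them, Ascl2, was highest in tuft cells of both libraries. The part of RNA from other cells in the values below was not tested.

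The genes lie apart in the mm10 genome. In the GENCODE M21 annotation, Plcb2 spans chr2:118707517-118728438 on the minus strand, Dclk1 chr3:55242364-55539068 on the plus strand, Gnat3 chr5:17962549-18019834 on the plus strand, Trpm5 chr7:143069153-143094642 on the minus strand, Pou2f3 chr9:43123939-43210369 on the minus strand, Avil chr10:127000709-127020994 on the plus strand, Il25 chr14:54932695-54935837 on the plus strand and Gng13 chr17:25717171-25719406 on the plus strand. Gnb3, at chr6:124834240-124840275 on the minus strand, and Lrmp, at chr6:145115653-145174934 on the plus strand, share a chromosome. All 10 encode proteins.

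Since Pou2f3 belongs to the family of factors that read the octamer ATGCAAAT, the promoters of the genes were searched for it on both strands. RefSeq promoter windows on GRCm38.p6, from 250 bases before to 50 after a transcript start, were found for 6 of the 10 genes in 8 windows. Windows for Pou2f3, Il25, Gnb3 and Lrmp were not analysed here. The octamer was in 0 of the 8 windows and in 1.74% of all 32851 windows. Its first 7 letters, ATGCAAA, which every octamer match also holds, were in 1 of the 8 windows and in 4.63% of all windows. That window was the Avil promoter, which holds 2 matches, as 0.292% of all windows do. The first begins 115 bases before the start on the antisense strand, and the other begins 15 bases before the start on the sense strand. The 250 bases before the start are shown, 5′ to 3′ on the strand of the gene, for Avil, with matches in capitals, and for Dclk1, Trpm5 and Plcb2, which hold none, so that the promoters of genes with a shared pattern can be read side by side. They lie at chr10:127000459-127000708 (plus strand), chr3:55242114-55242363 (plus strand), chr7:143094643-143094892 (minus strand) and chr2:118728439-118728688 (minus strand).
Avil: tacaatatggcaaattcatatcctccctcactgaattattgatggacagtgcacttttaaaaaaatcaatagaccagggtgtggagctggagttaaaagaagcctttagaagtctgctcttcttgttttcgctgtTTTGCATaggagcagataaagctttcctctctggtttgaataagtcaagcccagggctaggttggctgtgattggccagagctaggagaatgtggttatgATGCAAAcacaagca
Dclk1: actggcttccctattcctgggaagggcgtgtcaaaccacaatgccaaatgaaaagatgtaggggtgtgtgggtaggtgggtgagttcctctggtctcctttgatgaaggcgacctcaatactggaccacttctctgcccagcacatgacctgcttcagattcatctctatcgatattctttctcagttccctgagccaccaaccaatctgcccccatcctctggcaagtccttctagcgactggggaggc
Trpm5: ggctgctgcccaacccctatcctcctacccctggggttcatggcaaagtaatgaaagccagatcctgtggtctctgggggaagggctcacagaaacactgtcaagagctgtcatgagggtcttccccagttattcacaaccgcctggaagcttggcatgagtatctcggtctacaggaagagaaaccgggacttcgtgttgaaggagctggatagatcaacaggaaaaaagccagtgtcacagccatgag
Plcb2: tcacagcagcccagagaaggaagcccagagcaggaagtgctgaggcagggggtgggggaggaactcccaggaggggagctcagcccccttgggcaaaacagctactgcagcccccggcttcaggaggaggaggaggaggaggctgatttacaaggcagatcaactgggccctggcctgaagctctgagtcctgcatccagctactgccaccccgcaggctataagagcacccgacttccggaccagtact
The G and C content of the 8 member windows before the start ran from 40.8% to 69.2%, with a median of 52.6%, and the median of all windows was 52.4%. A match of letters is a description, and nothing about binding was measured.

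As counted, 9 of the 10 genes had their highest level of the 10 annotated cell types in tuft cells in both libraries. Gnb3 was the exception, with 0 tuft UMIs in replicate 1 and 1 in replicate 2. Among the 12281 genes with at least 10 UMIs in the kept cells of each library, 7.12% were highest in tuft cells in both. The same 9 genes were at least 4-fold above the other types pooled in both libraries, a size that 2.97% of those genes reached. None of the 10 was at least 4-fold below the others in both libraries, as 1.23% of those genes were. Only 7 of the 10 genes pass that minimum, and Il25, Gnat3 and Gnb3 do not. The median log2 ratio of tuft cells over the other types was 8.84 in replicate 1 and 8.05 in replicate 2 over the 9 genes with a ratio (with the others set to 3 UMIs for Il25 and Gnat3), and 0.18 and 0.32 over the 12281 genes. As a mean of the libraries with its SD (n = 2), the log2 ratio of the 7 genes with more than 3 UMIs in the other types of each library ran from 8.17 ± 0.18 for Avil to 9.44 ± 0.69 for Dclk1. The cell types were named by the authors from the expression of these same cells, and the genes were chosen as known tuft genes, so these counts describe how sharply the annotation follows the genes and are no test.

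**Figure D1:**
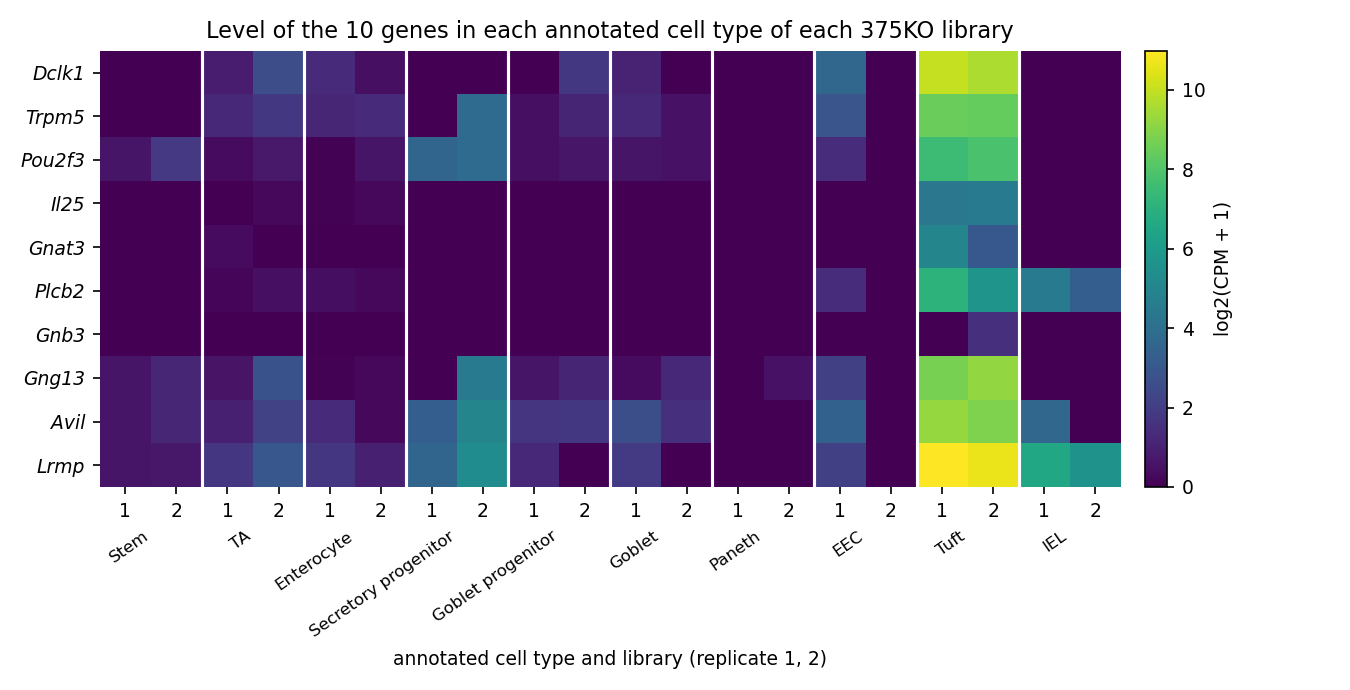
Level of each gene, as log2(CPM + 1) by colour, in the 10 annotated cell types (columns, in pairs of replicate 1 and replicate 2). The tuft columns of both replicates are the brightest for every gene but Gnb3, and Lrmp and Plcb2 also stand above 0 in lymphocytes of both libraries.

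Pou2f3, the factor that specifies the lineage, had 75 tuft UMIs (181 CPM, interval 143 to 227) in replicate 1 and 128 (229 CPM, interval 191 to 272) in replicate 2. The other types pooled held 14 UMIs (0.321 CPM) and 16 UMIs (0.741 CPM), so tuft cells were 565-fold and 309-fold higher. As counted, secretory progenitors came next in both libraries, at 10.9 CPM from 5 UMIs and 13.4 CPM from 3 UMIs. Their range over the libraries did not overlap that of stem cells, next in order at 0.561 and 2.49 CPM. In replicate 2 the counting intervals of secretory progenitors (2.76 to 39.1 CPM) and stem cells (0.679 to 6.38 CPM) did overlap. A count of 0 allows 11.4 CPM in lymphocytes of replicate 1 and 13.9 CPM in enteroendocrine cells of replicate 2, so the second place is not settled. The 3 UMIs of replicate 2 came from 1 of 19 cells. From stem cells down, enteroendocrine, goblet, goblet progenitor, transit-amplifying (TA) cells and enterocytes each overlapped the type before. Pou2f3 was at 0 in Paneth cells and lymphocytes of both libraries.

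Among the G protein subunits, Gnat3 encodes gustducin, the alpha subunit of taste and chemosensory cells. It had 13 tuft UMIs in replicate 1 (31.4 CPM, interval 16.7 to 53.8) and 4 in replicate 2 (7.14 CPM, interval 1.95 to 18.3). Outside tuft cells it had 2 UMIs, in TA cells of replicate 1, and 0 in replicate 2. In replicate 2 a count of 0 allows 13.4 CPM in secretory progenitors, 13.9 CPM in enteroendocrine cells and 13.3 CPM in lymphocytes. These limits lie above the tuft level, so tuft cells were highest there only as counted. As counted, tuft cells were 685-fold higher in replicate 1 (interval 155 to 6256). In replicate 2 they were at least 51.4-fold higher with the others set to 3 UMIs over the pooled types, and the counting interval of the ratio began at 25.5-fold. Gnb3, a G protein beta subunit of cones and taste cells, had 1 UMI in the kept cells of both libraries together, in a tuft cell of replicate 2. Counting every barcode of the matrices, Gnb3 had 1 UMI in each library, so its level was not detectable at this depth. Gng13, the gamma subunit that pairs with gustducin in taste cells, had 178 tuft UMIs (430.4 CPM, interval 369.5 to 498.5) in replicate 1 and 330 (589 CPM, interval 528 to 657) in replicate 2. The others held 12 UMIs (0.275 CPM) and 48 (2.22 CPM), which gave a 1564-fold difference in replicate 1 and a 265-fold difference in replicate 2. Of the 48 UMIs, 33 were in TA cells, and 16 of those in 1 cell.

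Plcb2, the phospholipase of the cascade, had 56 tuft UMIs (135 CPM, interval 102 to 176) in replicate 1 and 28 (50.0 CPM, interval 33.2 to 72.3) in replicate 2. Lymphocytes were next, at 22.8 CPM from 6 UMIs and 8.87 CPM from 2 UMIs. This range overlapped neither that of tuft cells nor that of enteroendocrine cells, next at 1.61 and 0 CPM. In replicate 2 the lymphocyte interval was 1.07 to 32.0 CPM, and 0 UMIs in enteroendocrine cells allows 13.9 CPM. The order of lymphocytes and enteroendocrine cells is thus not settled there. Tuft cells stood 5.93-fold and 5.64-fold above lymphocytes, as counted the smallest gap between tuft cells and another type for the 9 genes. Gnat3 of replicate 2, with 0 UMIs in all other types, has no such ratio. Trpm5, the channel at the end of the cascade, had 147 tuft UMIs (355 CPM, interval 300.3 to 418) in replicate 1 and 187 (334 CPM, interval 288 to 385) in replicate 2. The pooled others held 47 and 28 UMIs, and tuft cells were 329.8-fold and 258-fold higher. The next type was enteroendocrine cells in replicate 1 (6.44 CPM, 4 UMIs in 1 cell) and secretory progenitors in replicate 2 (13.4 CPM, 3 UMIs), and both types were at 0 in the other library.

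Dclk1, a microtubule-associated kinase widely used to mark tuft cells, had 434 tuft UMIs (1049.5 CPM, interval 953 to 1153) in replicate 1 and 448 (800.1 CPM, interval 728 to 878) in replicate 2. Tuft cells were 974-fold and 494-fold above the others, which held 47 and 35 UMIs. Stem cells, Paneth cells, secretory progenitors and lymphocytes had 0 Dclk1 UMIs in both libraries. Avil, an actin-binding protein of the villin family, had 248 tuft UMIs (599.7 CPM, interval 527 to 679) and 261 (466 CPM, interval 411 to 526). Outside tuft cells it had 83 UMIs in replicate 1, spread over 8 of the 9 other types, and 38 in replicate 2, so tuft cells were 315-fold and 265-fold higher. Lrmp, a membrane protein of the endoplasmic reticulum also known as Jaw1, had 838 tuft UMIs (2026 CPM, interval 1892 to 2168) and 896 (1600.3 CPM, interval 1497 to 1709). Lymphocytes came next in both libraries at 91.4 and 48.8 CPM, then secretory progenitors at 10.9 and 40.2 CPM and TA cells at 2.37 and 6.82 CPM. The ranges of these 4 types over the libraries did not overlap those of their neighbours. In replicate 2 the counting intervals of lymphocytes (24.4 to 87.3 CPM) and secretory progenitors (18.4 to 76.2 CPM) did overlap, so the order of these 2 types is not settled there. The 9 UMIs of secretory progenitors in replicate 2 came from 1 of 19 cells. Lrmp was found in 14 of 50 and 8 of 18 lymphocytes, with at most 6 UMIs in a cell.

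Il25, the output cytokine, had 8 tuft UMIs in replicate 1 (19.3 CPM, interval 8.35 to 38.1) and 12 in replicate 2 (21.4 CPM, interval 11.1 to 37.4). The other types held 1 and 2 UMIs. As counted, tuft cells were 844-fold higher in replicate 1 (interval 113 to 37430) and 232-fold higher in replicate 2 (interval 51.5 to 2130). Paneth cells, the deepest type with medians of 44683.5 and 80820 UMIs per cell, had no UMI of 9 of the 10 genes in either library. The exception was Gng13, with 2 UMIs in replicate 2. Much of the Paneth depth lay in few genes, as the 6 Paneth markers reached 513019 and 406387 CPM. The median number of genes per Paneth cell was 1918 and 2161. A count of 0 in 78 and 54 Paneth cells allows up to 3.85% and 5.56% of cells with a UMI.

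The cascade genes were then set beside their paralogs, since a related subunit at a high level would be part of the same description. Of 42 paralogs, 27 had at least 10 UMIs in each library. Of these 2 were at least 4-fold higher in tuft cells, 1 was at least 4-fold lower and 24 were neither, beside 2.97% and 1.23% of all genes. Under TMM and DESeq2 scaling 1 was higher. Gnai2, an inhibitory G protein alpha subunit, was at 711 and 738 CPM in tuft cells against 116 and 103 CPM in the others, 6.11-fold and 7.18-fold higher. Gnai3 was at 45.9 and 48.2 CPM in tuft cells against 86.6 and 54.4 CPM. Gnaz had 1 and 2 tuft UMIs, and Gnat2 had 0 in both libraries. For the beta subunits, Gnb1 was at 249 and 261 CPM in tuft cells and at 256 and 222 CPM in the others, and Gnb2 was at 585 and 439 CPM in tuft cells and at 343 and 245 CPM in the others. Their tuft sums of 103 and 146 UMIs for Gnb1 and 242 and 246 UMIs for Gnb2 stand beside the 0 and 1 of Gnb3.

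**Figure D2:**
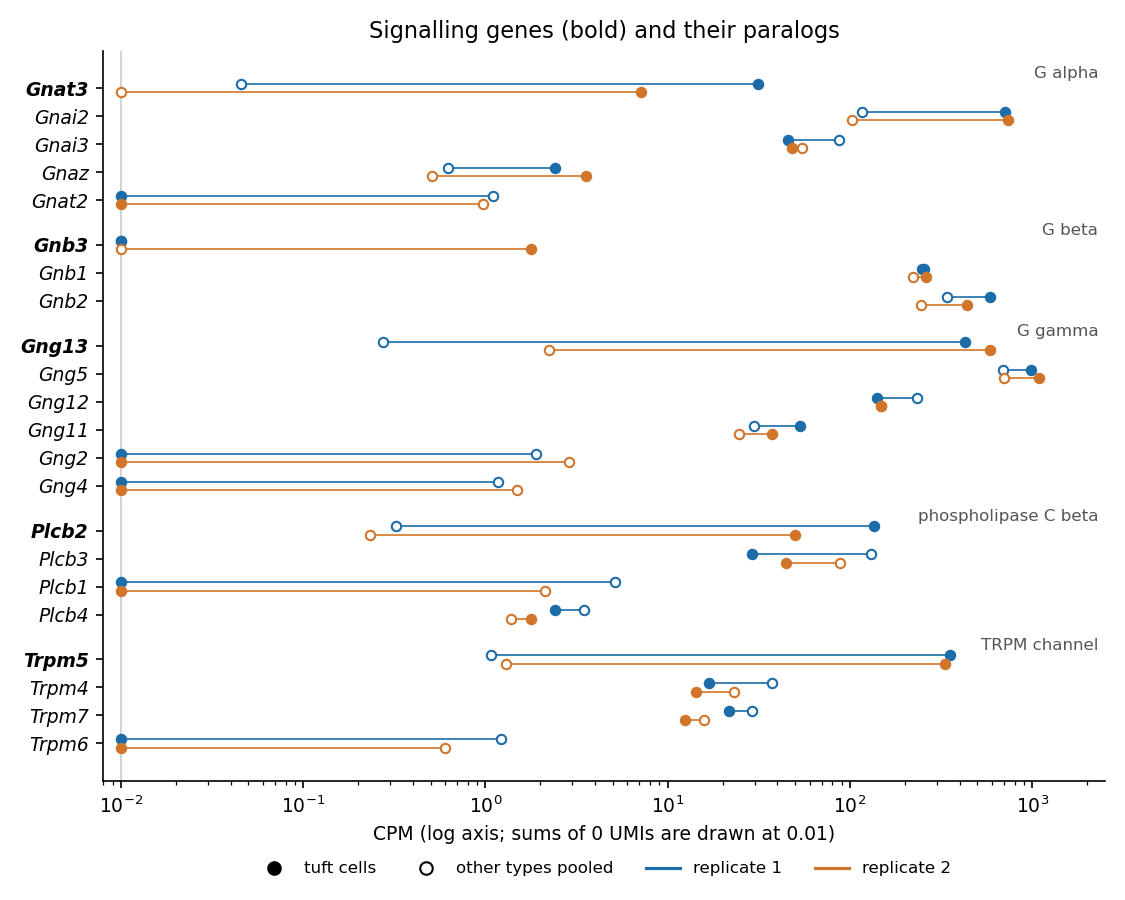
CPM in tuft cells (filled) and in the other types pooled (open) for the cascade genes in bold and their paralogs with at least 10 UMIs in each library, by replicate on a log axis. Gnat3, Gng13, Plcb2 and Trpm5 have long lines to the right, Gnai2 a shorter one, and Gnb1 and Gnb2 have short ones. Sums of 0 UMIs are drawn at 0.01.

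Gng5, a broadly expressed gamma subunit, was at 987 and 1089 CPM in tuft cells against 693 and 702 CPM in the others, a log2 ratio of 0.51 and 0.63 that became -0.05 and 0.00053 under TMM scaling. Gng12 was at 140.3 and 148.2 CPM in tuft cells against 234 and 148.1 CPM, and Gng11 at 53.2 and 37.5 CPM against 29.6 and 24.7 CPM. Gng2 and Gng4 had 0 tuft UMIs in both libraries. Plcb3 was the reverse of Plcb2, with 29.0 and 44.7 CPM in tuft cells and 129.8 and 88.2 CPM in the others, and its highest level was in TA cells. Plcb1 had 0 tuft UMIs and Plcb4 had 1 in each library. Trpm4, the channel most closely related to Trpm5, was at 16.9 and 14.3 CPM in tuft cells and 37.1 and 23.2 CPM in the others. Trpm7 was at 21.8 and 12.5 CPM in tuft cells against 29.1 and 15.9 CPM, and Trpm6 had 0 tuft UMIs.

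Among the relatives of Avil, Scin, the actin-severing protein scinderin, had 0 and 2 tuft UMIs and was highest in goblet cells. It was at least 11.4-fold lower in tuft cells than in the others in replicate 1, with 3 UMIs as the limit over the tuft sum, and 13.5-fold lower in replicate 2 (interval 3.73 to 112). Svil was 4.11-fold and 6.46-fold higher in tuft cells by CPM, and under both other scalings it was no longer 4-fold higher in both libraries. Vil1 was at 295 and 273 CPM in tuft cells against 385 and 193 CPM. Capg was at 24.2 and 21.4 CPM in tuft cells against 8.55 and 3.70 CPM, and Gsn at 9.67 and 14.3 CPM against 24.5 and 14.7 CPM. Of the Pou2f3 relatives, Pou2f1 was at 24.2 and 14.3 CPM against 11.8 and 10.3 CPM, and Pou2f2 had 0 tuft UMIs. Camk2d, related to Dclk1, was at 179 and 123 CPM in tuft cells against 108 and 69.2 CPM, while Dclk3 and the Il25 relative Il17d had 0 tuft UMIs in both libraries.

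In single cells, every tuft cell held UMIs of at least 5 of the 10 genes and at most 9. Of the 40 tuft cells of replicate 1, 6 held 5, 13 held 6, 16 held 7, 2 held 8 and 3 held 9. In replicate 2 the numbers were 4, 14, 14, 5 and 1 of 38 cells. Together the 10 genes gave a median of 48 UMIs per tuft cell in replicate 1 (lowest 11, highest 101) and 56 in replicate 2 (lowest 28, highest 107), or 0.559% and 0.449% of the UMIs of a cell. Lrmp was found in 40 of 40 and 38 of 38 tuft cells, with a median of 20.5 and 18.5 UMIs, and Avil in 40 of 40 and 37 of 38. Dclk1 was found in 38 and 35 cells, with medians of 12 and 12.5 UMIs, and it was at 0 in 2 and 3 cells that the authors named tuft.

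**Figure D3:**
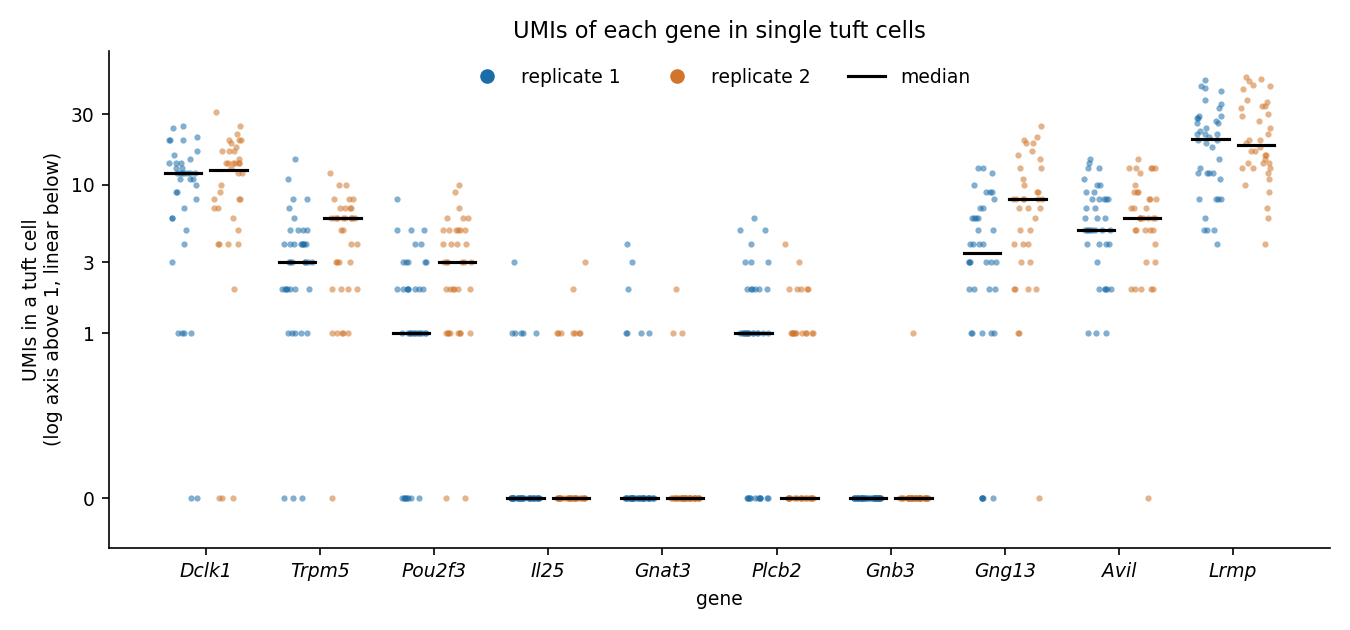
UMIs of each gene in every tuft cell (points) of replicate 1 and replicate 2, with the median as a black line, on an axis that is linear below 1 and logarithmic above. Lrmp lies between 4 and 53 UMIs in every tuft cell, while most cells are at 0 for Il25, Gnat3 and Gnb3.

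Trpm5 was found in 37 of 40 and 37 of 38 tuft cells, Gng13 in 35 and 37, Pou2f3 in 32 and 36, and Plcb2 in 28 and 18. The 3 cascade genes Trpm5, Gng13 and Plcb2 were found together in 22 of 40 tuft cells of replicate 1 (55%, exact binomial interval 38.5% to 70.7%) and 17 of 38 of replicate 2 (44.7%, interval 28.6% to 61.7%). Il25 was found in 6 and 9 tuft cells (15%, interval 5.71% to 29.8%, and 23.7%, interval 11.4% to 40.2%), with at most 3 UMIs in a cell. Gnat3 was found in 7 and 3 (17.5%, interval 7.34% to 32.8%, and 7.89%, interval 1.66% to 21.4%). Of the 13 Gnat3 UMIs of replicate 1, 4 came from 1 cell. With each cell thinned to 5000 UMIs, Plcb2 was found in 38.5% of 39 and 31.6% of 38 tuft cells, and Pou2f3 in 48.7% and 63.2%, against 0.10% and 0.346% of the thinned cells of all other types for Plcb2 and 0.300% and 0.260% for Pou2f3. Il25 was then found in 5.13% and 5.26% of tuft cells and Gnat3 in 15.4% and 7.89%, against 0 other cells for both.

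Outside the tuft cells, 12 of 2042 cells of replicate 1 (0.588%, exact binomial interval 0.304% to 1.02%) and 10 of 1155 cells of replicate 2 (0.866%, interval 0.416% to 1.59%) held at least 3 of the 10 genes. All 40 and all 38 tuft cells did (lower limits 91.2% and 90.7%). The 12 cells of replicate 1 were named enterocytes (6), TA cells (2) and, 1 each, enteroendocrine, goblet, goblet progenitor and secretory progenitor cells. The 10 cells of replicate 2 were named TA cells (6) and, 1 each, enterocyte, goblet progenitor, secretory progenitor and stem cells. Thinning to 5000 UMIs left 7 of 1997 and 5 of 1155 such cells, and 39 of 39 and 37 of 38 tuft cells.

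**Figure D4:**
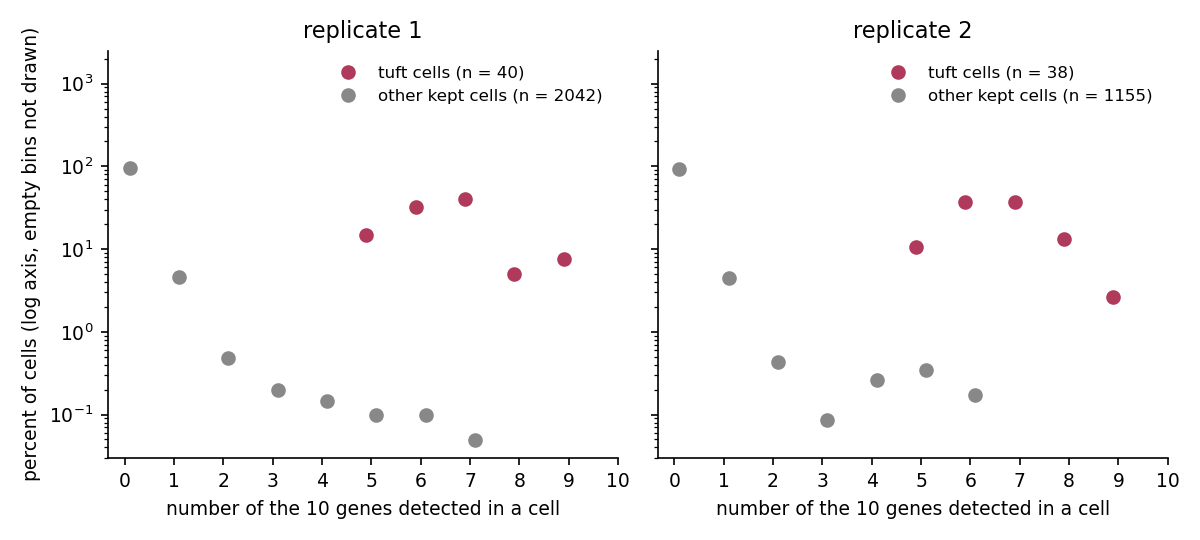
Percent of cells (log axis) that hold each number of the 10 genes, for tuft cells and all other kept cells of each replicate. Tuft cells lie between 5 and 9 genes, and most other cells hold 0 genes, with a tail that reaches 7 in replicate 1 and 6 in replicate 2.

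These few cells, chosen for holding at least 3 of the 10 genes, carried most of the UMIs of these genes outside the tuft cells. They held 198 of the 334 UMIs of the 10 genes outside tuft cells in replicate 1 (59.3%) and 170 of 237 in replicate 2 (71.7%). Their median depth was 22419 and 23564 UMIs, against 16590 and 15291 for the other non-tuft cells. Both the share and the depth follow in part from choosing the cells by their detected genes. The median doublet score was 0.0157 and 0.00514 in the remaining non-tuft cells and 0.0604 and 0.00434 in tuft cells. The chosen cells had a median score of 0.0700 and 0.0143, and their highest score was 0.759 and 0.688. They held a median of 6 and 4 of the 10 other tuft markers, against 1 in the remaining non-tuft cells and 9 in tuft cells. The part of depth and of doublets in these cells was not tested. Without them, which lowers the levels outside tuft cells by construction, Pou2f3 in secretory progenitors of replicate 1 had 2 UMIs (4.46 CPM), and stem cells came next in replicate 2. Dclk1 outside tuft cells then went from 47 to 5 UMIs and from 35 to 2, and Trpm5 from 47 to 13 and from 28 to 5. In lymphocytes Lrmp stayed at 24 and 11 UMIs and Plcb2 at 6 and 2, since no lymphocyte held 3 of the genes. Enteroendocrine Dclk1 and Trpm5 of replicate 1, 7 and 4 UMIs, came from 1 cell each.

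Between the mice, 2 of the 10 genes differed by at least 2-fold in tuft cells, where 20% of the 7597 genes with the minimum and at least 10 tuft UMIs over both libraries did. Of those 2, Gnat3 is not among the 7597. Gnat3 was 4.40-fold higher in replicate 1 (exact conditional interval 1.36 to 18.5) and Plcb2 2.71-fold higher (interval 1.69 to 4.43). By a rule that depends on the number of UMIs, an interval that leaves out 1, 6 of the 10 genes and 20.3% of the 7597 differed. Only 7 of the 10 genes are among the 7597, and 5 of these 7 differed. Dclk1, Avil and Lrmp were 1.31-fold (interval 1.15 to 1.5), 1.29-fold (1.08 to 1.54) and 1.27-fold (1.15 to 1.39) higher in replicate 1, and Gng13 was 1.37-fold higher in replicate 2 (1.14 to 1.65). The interval of the ratio held 1 for Trpm5 (1.06-fold higher in replicate 1, interval 0.852 to 1.33), for Pou2f3 (1.26-fold higher in replicate 2, interval 0.941 to 1.70) and for Il25 (1.11-fold higher in replicate 2, interval 0.416 to 3.12). Thinned to 5000 UMIs, Plcb2 was 1.87-fold higher in replicate 1. These intervals count UMIs within 2 mice and hold no spread between mice. The 2 sets of tuft cells also differed in depth, in median mitochondrial percent (8.15% and 4.89%) and in RNA of Paneth markers, higher in replicate 1, and enterocyte markers, higher in replicate 2 (above), and the part of these in the differences was not tested.

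**Figure D5:**
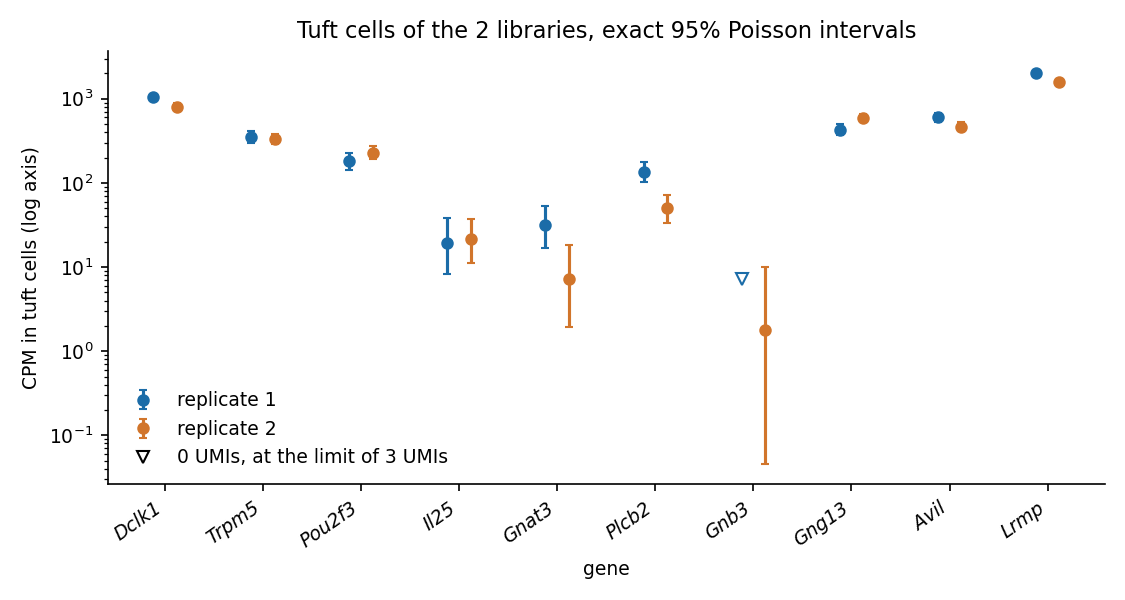
CPM of each gene in the tuft cells of replicate 1 and replicate 2 (points, log axis) with exact 95% Poisson intervals, and the limit of 3 UMIs where a sum was 0. Plcb2 lies at 135 and 50.0 CPM, Gnat3 at 31.4 and 7.14 CPM with wide intervals, and Trpm5 at 355 and 334 CPM.

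Genes around the cascade were read from 6 lists, and are given as counts beside the 2.97% of all genes that were 4-fold higher. Of 17 candidate receptors, 9 had at least 10 UMIs in each library and 6 of these were 4-fold higher in tuft cells of both libraries. Gprc5c, an orphan receptor, was 324-fold and 322-fold higher, and Ffar3, a receptor for short-chain fatty acids, 147-fold and 141-fold. Sucnr1, the succinate receptor, had 10 and 16 tuft UMIs against 5 and 0 in the others, 211-fold and at least 206-fold higher. Il17rb, part of the receptor for interleukin 25, had 7 and 14 tuft UMIs and was 23.8-fold and, with 2 UMIs in the others, 270.1-fold higher (interval 62 to 2449). The taste receptor subunit Tas1r3, chosen after its values were seen, had 5 and 2 tuft UMIs, and Tas1r1 and Tas1r2 had 0.

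Downstream of the G proteins, 4 of 8 measured genes of a list of 13 were 4-fold higher. Rgs13, a regulator of G protein signalling, was at 2375 and 2697 CPM in tuft cells, 2465-fold and 939.7-fold above the others. Itpr2, an inositol trisphosphate receptor that releases stored calcium, was at 369.98 and 189 CPM, 92.7-fold and 73.0-fold higher, while Itpr3, chosen after its values were seen, was at 31.4 and 42.9 CPM in tuft cells and 38.3 and 35.1 CPM in the others. Rgs2 was 20.2-fold and 17.6-fold higher, and the phosphodiesterase Pde2a 12.1-fold and 20.2-fold. Of 14 output genes, 9 were measured and 7 were 4-fold higher, with the eicosanoid genes Alox5ap (357-fold and 508-fold), Ptgs1 (234-fold and, with 3 UMIs in the others, 1003-fold, interval 331 to 4970) and Alox5 (205-fold and 333-fold) and the acetylcholine synthase Chat (211-fold and at least 193-fold, from 10 and 15 tuft UMIs) in the lead.

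Of 12 transcription factors, 11 were measured and 9 were 4-fold higher. Hmx2 was 1136-fold and 540.2-fold higher, and Hmx3, with 78 and 40 tuft UMIs against 0 and 2 elsewhere, was at least 2741-fold and 772-fold higher (interval of the second, 200.1 to 6591). Gfi1b had 17 and 24 tuft UMIs against 2 and 2 (896-fold, interval 213 to 7998, and 463-fold, interval 115 to 4042), and Spib was 255-fold and 174-fold higher. Of 15 kinases and adaptors, 11 were 4-fold higher, among them the adaptor Sh2d7 (1131-fold and 702-fold), the kinase Bmx (970.1-fold and 666-fold) and the adaptor Sh2d6 (518-fold and 735-fold). Of 12 genes of the apical bundle and cytoskeleton, 11 were measured and 5 were 4-fold higher, among them Krt23 (31.3-fold and 32.6-fold), the actin bundler Espn (8.83-fold and 24.2-fold) and Krt18 (8.71-fold and 11.1-fold). The members of these lists were picked as tuft genes with these data known, and the 10 tuft markers used above are among them.

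The genes whose level over the 10 cell types was most like that of each member were sought among 11395 other genes with at least 20 UMIs in each library, by Pearson's r of log2(CPM + 1) within each library. Such values rest mostly on the tuft sum, which stands far above the other 9, and are a description. Hmx2 was among the 3 most alike for 4 members (Trpm5, Pou2f3, Gng13 and Avil), and Ahnak2 for 3 (Pou2f3, Il25 and Gnat3). Dclk1 was most like Ly6g6f (r of 0.9945 and 0.9894 in the libraries), Trpm5 most like Ly6g6d (0.9683 and 0.9748) and Gng13 most like Strip2 (0.9712 and 0.9750). Pou2f3 was most like Ccdc109b (0.9323 and 0.9704), and Avil most like Pygl (0.8701 and 0.9512). Plcb2 was most like the kinase Matk (0.9925 and 0.9929), followed by the phosphoinositide kinase Pik3cg, and Lrmp was most like the prostaglandin D synthase Hpgds (0.9677 and 0.9379), followed by Cd300lf and Alox5ap.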

How the data were processed

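Per the labels and the methods, crypts were dissociated with dispase, and the authors aligned the reads to mm10 with Cell Ranger 3.0.1. They deposited 1 matrix of UMI counts per library. The methods name SoupX for the removal of free RNA without saying to which of the deposited matrices it was applied, and all counts are whole numbers. The authors kept cells with at least 1500 genes and at most 25% mitochondrial reads, a percent that they deposited per cell, and removed doublets by the class and score deposited from scDblFinder. They clustered the cells after integration and named them by scores of known marker genes, for which the submitters' processing notes name Seurat 3.2.1 and the methods a later version. A deposited table of corrected values was not used.

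Cell names were joined to the matrices by barcode. The cell table has no barcodes of its own and follows the order of the deposited count table, with equal UMI totals and gene numbers for 3275 of 3275 cells. The tables also hold 2937 cells and 6059 doublet entries of libraries that were not analysed here. UMI counts were summed per library and type and divided by the total (CPM). Other types were pooled, and for calls and log2 ratios pooled sums under 3 UMIs were set to 3. Printed folds against 1 or 2 UMIs are as counted, with their interval. A gene with 3 or fewer tuft UMIs was not called higher. This last rule was added after the values were seen, since a floor on the tuft sum would have called genes with no tuft UMIs.

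The 10 genes, the lists and the rules were chosen with earlier results of these data known. Named genes were all 10 genes, their paralogs with at least 10 UMIs in each library, and up to 4 genes per other list with the largest lower-of-2-libraries ratio past 4-fold, or past 4-fold lower. Of these, 2 are not reported here. No p was computed, because the types were named from the same cells and, between the mice, each gave 1 library. Intervals are exact (Poisson for sums, binomial for shares, conditional for ratios). Alternatives were TMM factors (edgeR 4.0.16), DESeq2 1.42.0 size factors, thinning to 5000 UMIs, cells with at most 10% mitochondrial reads, and others listed in the closing section. Scripts used Python 3.11.15 and scipy 1.17.1, and were tested on simulated counts. The promoter windows are those of RefSeq.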

Additional observations from a re-analysis of the deposited data

Results flagged for a closer look

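UMIs of the 10 genes were also found in barcodes that the authors neither kept nor named, which enter no comparison above. In replicate 1, 16 of 2667 unnamed barcodes that were examined for doublets and not called (0.600%, exact binomial interval 0.343% to 0.972%) held at least 3 of the genes. A count of 0 allows 0.112%. A further 2570 unnamed barcodes of this library were not examined for doublets, and 0 of them held 3 of the genes. Among the named non-tuft cells of this library the share was 12 of 2042 (0.588%). Those 12 cells had a median of 22419 UMIs, far above the median of the 16 barcodes given below, so the shares are at unlike depth. The unnamed barcodes are flagged for lying outside the comparisons, and an excess was not tested. Of the 16 barcodes, 14 had fewer than 1500 genes and 11 had more than 25% mitochondrial reads, and 0 met both limits. They held a median of 5 of the 10 genes and of 7 of the 10 other tuft markers, at a median of 2235.5 UMIs. A further 13 of 346 barcodes called doublets in replicate 1 (3.76%, interval 2.02% to 6.34%, against the 0.867% that a count of 0 allows) held at least 3 genes, with a median of 7 genes and 9 markers, and 10 of the 13 met both limits. In replicate 2, 0 of 14 and 0 of 38 such barcodes did, which allows up to 21.4% and 7.89%. What these barcodes are was not tested.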

How the results depend on the processing

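The 9 genes highest in tuft cells and the 9 at least 4-fold higher were counted again under each alternative. Between 9 and 10 genes were highest with 1 library left out (Gnb3 joins, by 1 UMI, without replicate 1), and 9 were 4-fold higher. Both counts were 9 under TMM factors, DESeq2 size factors and the stricter mitochondrial limit. They were also 9 without the non-tuft cells that held 3 of the genes, an alternative chosen after seeing the data. With cells thinned to 5000 UMIs 9 were highest and 7 were 4-fold higher, as Il25 and Gnat3 fell to 3 or fewer tuft UMIs in a library. The median log2 ratio of the 9 genes was 8.24 and was 7.64 under TMM factors, 7.26 against the unweighted mean of the other types, 9.79 without the non-tuft cells that held 3 of the genes, and 8.05 to 8.84 with 1 library left out. The unweighted mean gives small types, such as lymphocytes and secretory progenitors, the weight of any other type. Plcb2 moved most, from 8.24 to 5.60, then Lrmp, from 9.33 to 7.26, and then Pou2f3, which was at 0 in lymphocytes, from 8.71 to 6.83. With lymphocytes left out of the others Plcb2 went to 8.998. Over all genes with the minimum, TMM and DESeq2 factors shifted the median log2 ratio by -0.60 and -0.47, and the genes 4-fold higher and 4-fold lower in tuft cells went from 365 and 151 by CPM to 256 and 285 by TMM and 271 and 255 by DESeq2 factors. Il4ra, Spire2 and Svil were 4-fold higher by CPM alone, Ptprc was not so under TMM factors, and Pls1 became 4-fold lower under both. Between the mice, 1 gene (Gnat3) in place of 2 was 2-fold apart after thinning. An exact interval that left out 1, a rule added after seeing the data, was met by 6 of the 10 genes. Among the genes tested, 5 of 7 members and 20.3% of all met it. The share of tuft cells with 3 genes went from 100% to 97.5% with 2 UMIs asked for and to 98.7% after thinning, and was 100% without either library. That of other cells was 0.727% as the mean of the libraries, 1.19% with 2 genes asked for, 0.392% after thinning, and 0.588% to 0.866% with 1 library left out. Without a minimum, the background shares were 5.43% highest in tuft cells, 2.12% 4-fold higher and 9.97% apart between the mice. Tuft cells and other types were paired within each mouse throughout. Il25, Gnat3 and Gnb3 had at most 13 tuft UMIs in a library, so their values rest on few counts, and the part of depth in this was not tested.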
